A study of Macaca mulatta with 4 samples.

Results

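In rhesus macaque (Macaca mulatta) morulae, 1875 autosomal bins of 10 kb carried H3K27me3 intervals in androgenetic and in gynogenetic embryos without belonging to a wide domain of the gynogenetic embryos. They were 1875 of 267367 autosomal bins (0.701%) and 79.0% of the 2373 bins that passed the coverage threshold in every library. A bin entered the set when at least 450 of its 10000 bases lay under intervals in all 4 libraries and when it touched no wide GG domain. For the wide domains, intervals at most 1500 bp apart were joined in each GG library, joined domains of at least 50 kb were intersected between the 2 libraries, and the 555 pieces still at least 50 kb wide were kept; they spanned 44.1 Mb. Coverage in the bin therefore chose the set, so the coverage values of these bins are given as a description with no test.

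Trimethylation of lysine 27 on histone H3 is laid down by Polycomb repressive complex 2, whose catalytic subunit is EZH1 or EZH2, and marks genes and regions that are kept silent. Polycomb complexes can bind existing H3K27me3 and extend it to neighbouring nucleosomes, so the mark forms both short patches and long blocks. In mouse embryos, H3K27me3 inherited from the oocyte marks maternal alleles and silences a small group of genes on them without DNA methylation, a form of imprinting that does not depend on the germline methylation marks.

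The libraries were made by CUT&RUN, in which an antibody against H3K27me3 recruits micrococcal nuclease fused to protein A, and DNA cut free at the mark is sequenced, although their titles name ChIP-seq. There were 2 libraries from morulae labelled AG and 2 from morulae labelled GG; the series describes androgenetic embryos, whose nuclear genome is paternal only, and gynogenetic embryos, whose nuclear genome is maternal only. No treatment, age or strain is given, nothing says whether replicates came from separate pools of embryos, and biparental embryos were not analysed here. The comparison addressed here is where the mark occupied the same places on paternal and maternal genomes. Uniparental embryos carry no copy from the other parent, so paternal and maternal alleles were never measured in the same nucleus.

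Each library was read as stretches of the rheMac8 genome under tags, with 42157 autosomal intervals for AG replicate 1, 44129 for AG replicate 2, 337216 for GG replicate 1 and 266183 for GG replicate 2. In the same order they covered 0.497%, 0.635%, 7.80% and 7.23% of the autosomes. Tag counts are not part of the intervals. The depth of sequencing is therefore unknown, and coverage says how many bases lay under tags, not how strong the mark was. Islands had been called with a window and gap of 200 bp in AG and with a window of 300 bp and a gap of 1200 bp in GG, so the calling and the genotype cannot be told apart in any difference between the groups. An exact permutation test of 2 libraries against 2 cannot reach p = 0.05, and no p is given. Genes, promoters and sequence in the bins were not analysed here, since neither gene models nor bases of that build were used.

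These shared bins were a larger part of what was marked in AG than of what was marked in GG. Both AG libraries marked 3950 bins, of which 1875 (47.5%) were shared bins outside wide domains, 498 (12.6%) were shared bins in wide domains, 1213 (30.7%) were bare in both GG libraries, and 364 (9.22%) had some GG coverage but not enough in both. Of the 27401 bins marked in both GG libraries, the same 1875 bins were 6.84%. They held 40.4% and 32.2% of the autosomal covered bases of AG replicates 1 and 2, whereas the corresponding shares for the GG replicates were 6.04% and 6.63%. Each AG share was thus several times each GG share. The 1875 bins are the same in both groups, so the larger total of GG bins fixes the order of the bin shares. The GG libraries also covered far more of the autosomes, and the rule required AG coverage in each bin. The order of the base shares is therefore not read as a property of the shared bins.

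Within the shared bins the maternal genome was covered more fully than the paternal genome, as it was over the autosomes as a whole. The autosomal coverage was 0.497% and 0.635% for the AG replicates and 7.80% and 7.23% for the GG replicates. Mean coverage of the shared bins was 57.6 and 45.9 times that autosomal value in AG and 8.62 and 9.46 times in GG. AG replicate 1 had between 450 and 9910 covered bases in a bin, with a median of 2302. AG replicate 2 had between 454 and 9947, with a median of 2379. GG replicate 1 ranged from 525 to 10000 with a median of 7298, and GG replicate 2 from 457 to 10000 with a median of 7462. The medians of the groups did not overlap, at 2341 ± 54.4 covered bases for AG and 7380 ± 116.0 for GG (SD over 2 libraries of each group), and the GG median was 3.07 to 3.24 times the AG median in the 4 pairings of an AG with a GG library.

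**Figure D1:**
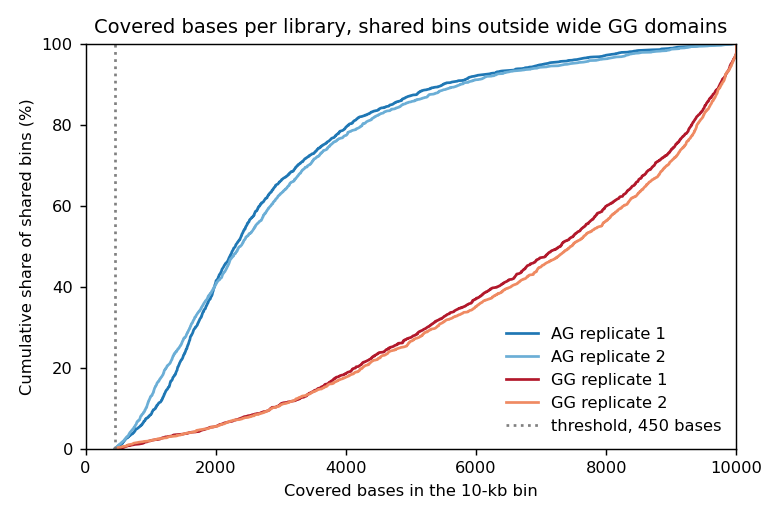
Cumulative share of the 1875 shared bins outside wide GG domains (vertical axis, %) against the covered bases in the 10-kb bin (horizontal axis), with a line for each library and the threshold of 450 bases dotted. The AG lines rise early, with medians of 2302 and 2379 bases, and the GG lines rise late, with medians of 7298 and 7462; replicates lie close together.

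A bin was often nearly full in GG and seldom so in AG. At least 9000 of the 10000 bases were covered in 489 bins (26.1%) of GG replicate 1 and 542 bins (28.9%) of GG replicate 2, against 20 and 25 bins in AG replicates 1 and 2. Fewer than 1000 bases were covered in 158 and 241 bins of AG replicates 1 and 2 and in 36 and 37 bins of the GG replicates. The library with the lowest coverage of a bin was an AG library in 860 and 843 of the 1875 bins, and a GG library in only 107 and 65. Membership therefore rested mostly on AG coverage.

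The threshold cut through a continuous range of values. The bins just inside it lay on chromosome 19 from 2140001 to 2150000, where AG had 450 and 519 covered bases and GG 1148 and 1892, on chromosome 11 from 47270001 to 47280000, with 454 and 885 in AG and 8605 and 9586 in GG, and on chromosome 2 from 163970001 to 163980000, with 765 and 454 in AG and 954 and 725 in GG. Just outside were chromosome 8 from 6700001 to 6710000 and chromosome 16 from 44590001 to 44600000, each with 449 covered bases in GG replicate 1, and chromosome 9 from 125290001 to 125300000, with 449 in AG replicate 1 but 8632 and 9764 in GG. In all, 86 shared bins had a lowest library under 600 covered bases.

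Shared bins differed more between genotypes than between replicates in how coverage varied from bin to bin. Across the 1875 bins the AG replicates correlated with Pearson's r of 0.83 and Spearman's rho of 0.71, and the GG replicates with r of 0.84 and rho of 0.87. The 4 pairings of an AG with a GG library gave r of 0.23 to 0.27 and rho of 0.25 to 0.27. The bins of a library share its depth and its calling, and neighbouring bins can share a domain, so these values describe the libraries and have no p. Among the 469 bins with the lowest mean AG coverage, the GG medians were 5777 and 6107 bases, and among the 469 with the highest they were 8303 and 8579. Bins with more AG coverage thus tended to have more GG coverage, loosely.

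At the level of single bases, the paternal patches lay mostly on maternally covered sequence. Of the AG covered bases in the shared bins, 88.8% to 89.5% lay under GG intervals in the 4 library pairings, while of the other bases of the same bins 58.2% to 60.1% did. The overlap of positions inside a bin was not used to choose it, although full GG coverage of a bin forces overlap. The GG-covered share was higher on AG bases than on the rest of the bin in 1673 to 1719 of the 1875 bins (89.2% to 91.7%). Every AG base lay on a GG interval in 670 to 804 bins, and none did in 28 to 39 bins, depending on the pairing. Only 17 bins had no AG base on a GG base in any of the 4 pairings.

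**Figure D2:**
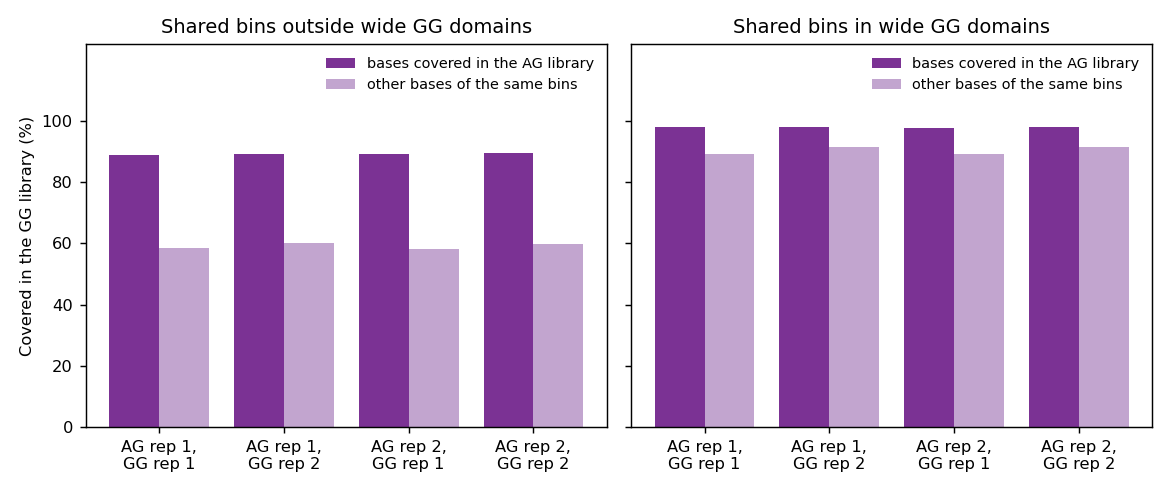
Percentage of bases covered in a GG library (vertical axis) among bases covered in an AG library (dark bars) and among the other bases of the same bins (light bars), for each pairing of an AG with a GG library. In the shared bins outside wide domains (left) the dark bars stand at 88.8% to 89.5% and the light bars at 58.2% to 60.1%; in shared bins of wide domains (right) they stand at 97.6% to 98.0% and 89.1% to 91.6%.

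Much of that difference came from bases outside any GG domain. When only bases inside joined GG domains were counted, 94.5% to 95.2% of the AG bases and 84.7% to 86.9% of the other bases were covered in GG, so the gap shrank but kept its direction in all 4 pairings. Of all AG bases in the shared bins, 93.8% to 94.0% lay inside a GG domain. In the other direction, 37.2% to 38.6% of the GG bases were covered in an AG library. Replicates of the same group shared 70.3% and 68.9% of the bases of AG replicates 1 and 2, and 89.0% and 87.4% of those of GG replicates 1 and 2. An AG library thus shared a larger part of its bases with a GG library than with the other AG library, which covered far less of these bins than GG did. The part that mappability or sequence composition has in these overlaps was not tested.

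Sequence covered in all 4 libraries formed short cores. Such a core was present in 1771 of the 1875 bins (94.5%) and absent in 104, with a median of 1266 bases per bin and a total of 3.28 Mb. It was broken into 14335 segments with a median length of 150 bp, which is also the most common length of a deposited interval, and 340 segments reached 1000 bp. The longest lay on chromosome 5 from 155661949 to 155667218 (5270 bp). It was followed by chromosome 17 from 2380896 to 2385617 (4722 bp), chromosome 10 from 25332195 to 25336841 (4647 bp), chromosome 18 from 35892391 to 35896866 (4476 bp) and chromosome 2 from 164211778 to 164216226 (4449 bp).

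Domains at the shared bins were short in AG and several times longer in GG. With intervals at most 1500 bp apart joined, the widest domain touching a bin had a median width of 3752 and 3577 bp for the AG replicates and 16650 and 17322 bp for the GG replicates. The group values were 3665 ± 124 bp and 16986 ± 475 bp (SD, n = 2 each), and a wider calling gap can itself lengthen GG domains. In AG, 85.3% and 85.2% of the bins had no domain over 10 kb, against 26.7% and 26.3% in GG. The exclusion of wide domains was not complete within single libraries: 70 bins lay in a domain of at least 50 kb in GG replicate 1 and 201 in GG replicate 2, 16 of them in both, where the shared piece was shorter. The remaining 1620 bins lay in no such domain of either library.

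At the shared bins, most paternal domains were nested inside a maternal one. The rule asked for GG coverage in each of these bins, so the choice itself placed GG coverage near the stretches. The shares below are therefore a description of the shared bins, with no comparison value, and do not extend to paternal domains elsewhere. Stretches inside a domain of both AG libraries, at least 450 bp long and touching a shared bin, numbered 1615 with a median width of 2282 bp. Of these, 1292 (80.0%) lay wholly inside a domain common to both GG libraries, 241 (14.9%) lay partly inside and 82 (5.08%) lay outside. The 1292 nested stretches fell in 1154 GG domains with a median width of 13660 bp, and 1037 of those GG domains held a single AG stretch. The AG stretch took up a median of 16.2% of the width of its GG domain.

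Nested AG stretches lay throughout their GG domains. Position was scaled from 0, where the AG stretch touches the edge of the GG domain, to 1, where it sits in the middle, so that even placement would fill each step of 0.25 equally. From edge to middle the steps held 18.7%, 24.9%, 27.9% and 28.5% of the 1292 stretches. The 241 stretches that cross an edge of their GG domain, with a median of 85.1% of their width inside, have no position on this scale and are left out, so the steps do not show whether AG stretches were fewer or more frequent near edges.

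Relative to the shared bin itself, coverage around it fell off faster in AG than in GG. The rule chose these bins for their coverage, and an AG library was mostly the lowest. Islands were also called with a smaller gap in AG. The order of these ratios is therefore a description and is not read as a difference between the genomes. In the bins 10 kb away, mean coverage was 10.9% and 11.8% of bases for the AG replicates and 42.0% and 43.9% for the GG replicates, or 0.393 ± 0.0162 and 0.633 ± 0.0111 times that of the shared bin itself (SD, n = 2 each). At 20 to 50 kb it was 4.00% and 4.43% in AG and 23.6% and 24.3% in GG, or 0.146 ± 0.00861 and 0.353 ± 0.00260 times the shared bin. These flanks were still 8.05 and 6.97 times the autosomal mean for the AG replicates and 3.02 and 3.36 times for the GG replicates. At 150 to 200 kb they remained 3.43 and 3.17 times that mean in AG and 1.87 and 2.02 times in GG. Relative to its own autosomal mean, each AG library was thus raised over the wider surroundings by more than each GG library. Flanks can hold other shared bins, which the rule chose for their AG coverage, and the autosomal mean was far lower in AG. That order is therefore not read as a property of the surroundings.

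**Figure D3:**
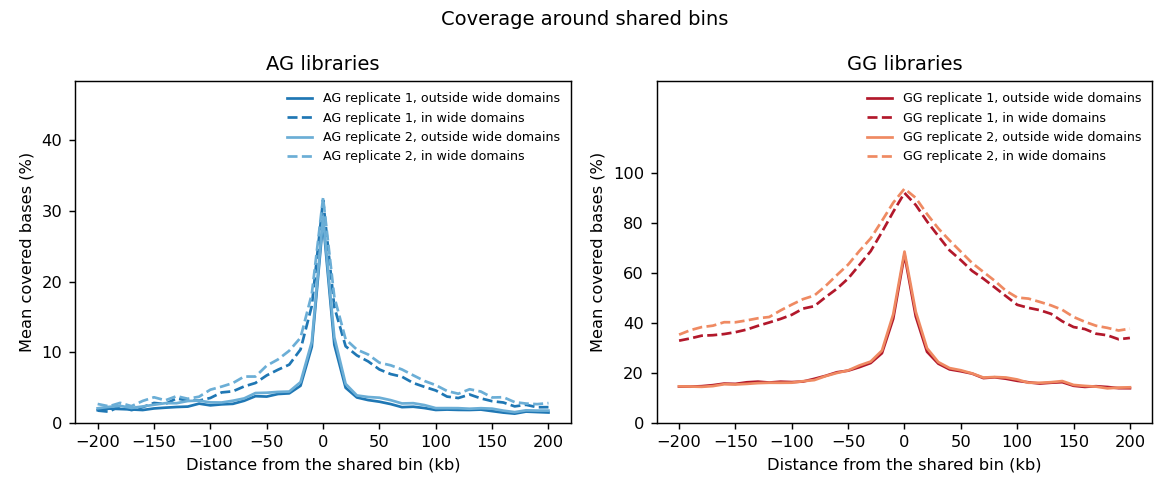
Mean covered bases (vertical axis, %) in 10-kb bins against distance from the shared bin (horizontal axis, kb) in the AG libraries (left) and GG libraries (right), for shared bins outside wide domains (solid) and in wide domains (dashed). Outside wide domains AG falls to 4.00% and 4.43% at 20 to 50 kb and GG to 23.6% and 24.3%; in wide domains the GG lines decline slowly.

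A part of the shared bins had bare surroundings beyond their direct neighbours. Mean coverage at 20 to 50 kb nevertheless lay above the autosomal mean in every library. The counts below were not set against those of other bins and only describe the shared bins. At 20 to 50 kb on both sides, 858 bins (45.8%) lacked any AG coverage, 359 (19.1%) lacked any GG coverage, and 287 (15.3%) had none in any of the 4. Of these 287 bins, 205 touched no other shared bin and 82 touched one. Among the 1228 bins with at least 5000 covered bases in both GG libraries, 172 had no GG base in these flanks, 129 of them touching no other shared bin, and the first by position are examples. On chromosome 1 from 75110001 to 75120000, AG replicates 1 and 2 had 6594 and 5538 covered bases and GG replicates 1 and 2 had 9980 and 9924, with no base in the flanks of any library. Lower coverage in all libraries but the same empty flanks was found on chromosome 1 from 30480001 to 30490000 (1764 and 960 in AG, 5584 and 5187 in GG), from 50530001 to 50540000 (1431 and 2569, 5334 and 5646) and from 66300001 to 66310000 (2420 and 1318, 6596 and 6442). On chromosome 1 from 111100001 to 111110000, where AG coverage was 3852 and 3287 bases and GG coverage 5930 and 5186, the flanks were empty in GG and covered to 4.01% and 0.425% in AG; unlike the first 4 examples, this bin touched another shared bin.

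Many shared bins touched each other. The 1875 bins formed 1406 runs, of which 1057 were a single bin, 271 were 2 bins and 56 were 3 bins long. In all, 818 of the 1875 bins (43.6%) touched another. The share was 47.5% for bins marked in both AG libraries and 94.9% for bins marked in both GG libraries. It was 59.4% for shared bins in wide domains and 36.3% for AG bins without a GG base. Of the bins next to a shared bin, 65.7% were marked in both GG libraries, 28.4% were marked in both AG libraries, 26.5% were marked in both GG libraries with no AG base, and 18.4% had no base in any library. Bins marked in both AG libraries with no GG base made up 1.55% of these neighbours and 0.454% of all autosomal bins. Of all autosomal bins, both GG replicates marked 10.2%, and both AG replicates marked 1.48%. The differences between neighbours and all bins were not tested.

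The longest runs included places where the paternal genome was covered as fully as the maternal genome. The longest lay on chromosome 17 from 2300001 to 2390000 (90 kb), with mean coverage of 77.8% and 76.9% for the AG replicates and 46.7% and 63.6% for the GG replicates, so both AG libraries lay above both GG libraries. The run on chromosome 8 from 13580001 to 13660000 (80 kb) had 73.8% and 70.8% in AG and 70.5% and 76.2% in GG, which overlap. On chromosome 2 from 7090001 to 7170000 (80 kb) mean coverage was 40.4% and 39.6% in AG and 36.3% and 39.4% in GG, so that the AG libraries lay above the GG libraries by a margin smaller than the spread between the GG replicates. The first runs of 5 bins were on chromosome 2 from 162970001 to 163020000, with 29.2% and 31.8% in AG and 53.2% and 63.0% in GG, and on chromosome 5 from 83210001 to 83260000, with 32.8% and 45.7% in AG and 62.6% and 65.6% in GG. In both of these GG lay above AG.

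The chromosome 17 run was part of a longer block that ended sharply in every library. At the start of the run, coverage began 3 kb in for both AG replicates and GG replicate 2, and 8 kb in for GG replicate 1. Each of its 9 bins had more covered bases in both AG libraries than in both GG libraries. In its fullest AG bin, from 2350001 to 2360000, the AG replicates had 9683 and 9813 covered bases and the GG replicates 6618 and 8118. The next bin after the run, from 2390001 to 2400000, had 6205 and 6370 in AG but 0 and 2441 in GG and so was no member. It was followed by 2 more members, from 2400001 to 2410000 with 9910 and 9937 in AG and 2774 and 7566 in GG, and from 2410001 to 2420000 with 2793 and 2847 in AG and 1527 and 2409 in GG. From 2420001 to 2450000 no library had a covered base, and from 2240001 to the start of the run only AG replicate 2 had any, with 1488 bases from 2290001 to 2300000.

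**Figure D4:**
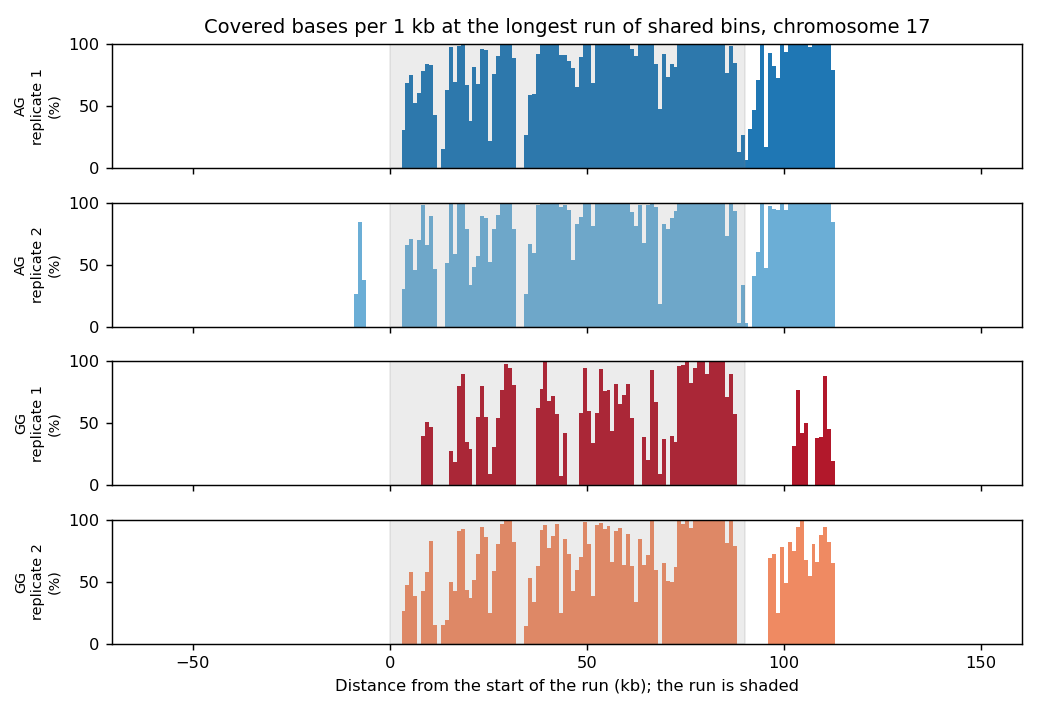
Covered bases per 1 kb (vertical axes, %) in each library against distance from the start of the longest run of shared bins, on chromosome 17 (horizontal axis, kb; the 90-kb run is shaded). Both AG libraries are filled more evenly than both GG libraries. Beyond the run, coverage ends within the same 1 kb in all 4 libraries. At the left of the run it begins later in GG replicate 1 than in the other libraries.

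Across all shared bins, both GG libraries exceeded both AG libraries in covered bases in 1611 of 1875 bins (85.9%), both AG libraries exceeded both GG libraries in 84 (4.48%), and the groups overlapped in 180 (9.60%). Among the 42485 autosomal bins marked in at least 1 library, GG lay above AG in 65.2% and AG above GG in 3.54%. The rule used these coverages, so nothing is read from the comparison with that background. In the 84 bins the median coverage was 5342 and 5540 bases for the AG replicates and 2233 and 2892 for the GG replicates. The 84 bins formed 67 runs, of which 58 were single bins, and occurred on 19 of 20 autosomes.

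The excess of AG over GG was widest in a few bins. On chromosome 7 from 60110001 to 60120000 the AG replicates had 7512 and 9361 covered bases and the GG replicates 1317 and 1046. On chromosome 8 from 26070001 to 26080000 the values were 8971 and 8157 in AG against 2730 and 2749 in GG, and on chromosome 4 from 1260001 to 1270000 they were 8845 and 8685 against 3328 and 2855. The next were chromosome 9 from 95100001 to 95110000, with 4588 and 6446 in AG and 789 and 971 in GG, and chromosome 18 from 46890001 to 46900000, with 5212 and 5741 in AG and 1822 and 1351 in GG. In these 5 bins the lower AG library exceeded the higher GG library by 3390 to 6195 bases.

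Some of the bins with the highest AG coverage were also nearly full in GG. The bins with the highest mean AG coverage were, after that on chromosome 17 from 2400001 described above, chromosome 2 from 164210001 to 164220000, with 9858 covered bases in each AG library and 10000 in each GG library, and the chromosome 17 bin from 2350001. They were followed by chromosome 11 from 8410001 to 8420000, with 9672 and 9784 in AG and 8660 and 9198 in GG, and by chromosome 1 from 49980001 to 49990000, with 9319 and 9766 in AG and 9943 and 9766 in GG. On chromosome 2 from 164210001, 9716 of the 10000 bases were covered in all 4 libraries.

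Among the shared bins, those of chromosome 17 stood apart in how often AG exceeded GG. It held 57 of the shared bins (3.04%) but 20 of the 84 bins with AG above GG (23.8%). This was 35.1% of its shared bins, whereas the share on the other autosomes together was 3.52% (64 of 1818) and ranged from 0% on chromosome 14 to 7.69% on chromosome 8. All 20 lay in the first 10 Mb, a limit chosen after the values were seen, where they were 20 of 33 shared bins, against 0 of the 24 further along. In the first 10 Mb the median coverage was 5481 and 4681 bases for the AG replicates and 4147 and 5154 for the GG replicates. Over the rest of the chromosome it was 2886 and 2230 in AG and 5833 and 6566 in GG, the usual order. The block at 2.3 Mb supplies 11 of the 20 bins, which are neighbours and no independent cases. Chromosome 17 was also poor in GG coverage, with 348 of its 9556 bins marked in both GG libraries, and 16.4% of those GG bins were shared bins, against 5.07% to 10.9% on the other autosomes. The share with AG above GG among all marked bins of this chromosome is not given here. The part of the low GG coverage of this chromosome in its many AG-high bins was not tested.

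**Figure D5:**
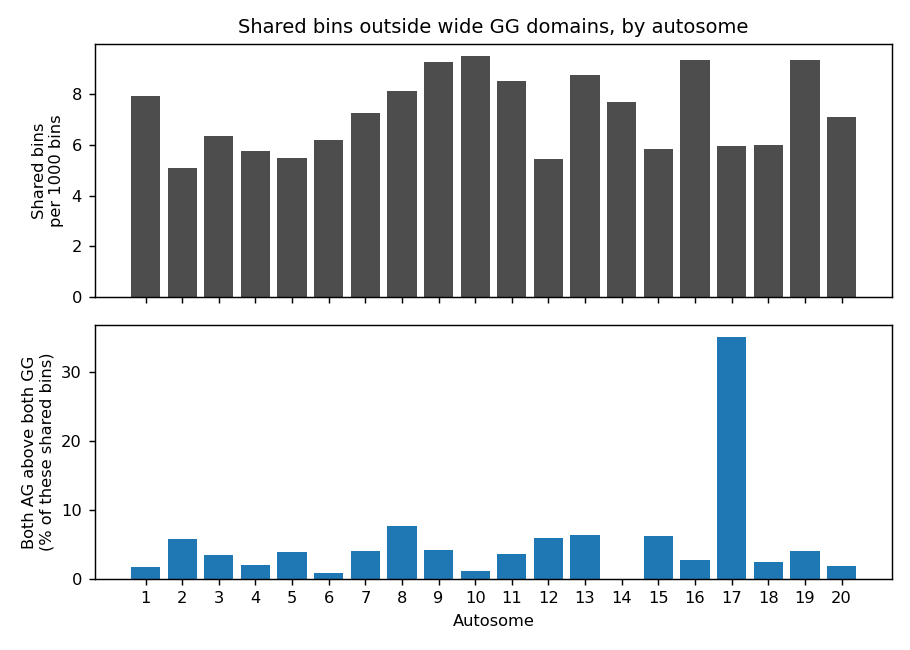
Shared bins outside wide GG domains per 1000 bins of each autosome (upper bars) and the percentage of them in which both AG libraries exceeded both GG libraries (lower bars). The density runs from 5.08 on chromosome 2 to 9.48 on chromosome 10, while the lower bar of chromosome 17 stands at 35.1% and that of every other autosome at 7.69% or less.

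Shared bins occurred on every autosome and were denser toward chromosome ends. Their density varied from 5.08 per 1000 bins on chromosome 2 to 9.48 on chromosome 10. Of the 1875 bins, 387 (20.6%) lay within 5 Mb of an end of an autosome, as did 7.49% of all bins, 19.6% of the bins marked in both GG libraries and 27.4% of those marked in both AG libraries. In the outermost 1 Mb there were 33.3 shared bins per 1000, then 15.8 from 1 to 5 Mb, 7.22 from 5 to 20 Mb and 5.63 further inside. As a share of the GG marked bins they were 13.6%, 5.79%, 5.85% and 7.20% in these steps, and as a share of the AG marked bins 38.0%, 34.7%, 45.7% and 54.9%. Shared bins thus made up a larger part of AG marking in chromosome interiors than at the ends. In contrast, 38.5% of the AG bins without a GG base lay in the outer 5 Mb.

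The shared bins in wide GG domains, 498 in number, were the most similar set. Their median AG coverage was 2527 and 2604 bases in replicates 1 and 2, against 2302 and 2379 outside wide domains, and their median GG coverage was 9636 and 9733 bases, which the wide domains chosen by the rule help to fix. AG domains there had median widths of 4526 and 3841 bp, again a little above the 3752 and 3577 bp outside. AG flanks at 20 to 50 kb were covered to 8.69% and 9.97% around the bins in wide domains and to 4.00% and 4.43% around those outside. Both AG libraries were thus higher around the bins in wide domains. At 150 to 200 kb the values were 2.31% and 2.93% against 1.70% and 2.01%. Flanks can hold other shared bins, which the rule chose for their AG coverage. In wide domains 59.4% of the shared bins touched another, against 43.6% outside. These differences were not tested.

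Shared bins lay nearer to wide GG domains than bins outside wide domains in general, and less near than other GG marked bins, which is a description without a test. The distance from a shared bin to the nearest wide domain had a median of 1659 kb, and 160 shared bins (8.53%) lay within 50 kb of one. Of the other 20619 bins marked in both GG libraries outside wide domains, 11.5% lay as close, with a median of 924 kb, and of all bins outside wide domains 1.63% did, with a median of 5371 kb.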

How the data were processed

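H3K27me3 CUT&RUN of macaque morulae was analysed from 2 AG and 2 GG libraries, grouped and numbered by their titles. The submitters' processing notes name the build rheMac8 and, for island calling, SICER 1.1; they also list deepTools 3.3.1, Bowtie2, SAMtools and Trim Galore. The deposited files hold a chromosome, start and end per interval, with no other value in any unit; their names give the SICER window, gap and an E value of 0.001. Within a file no interval overlapped or touched the next, and the shortest was 20 bp, so intervals were read as joined tags on islands. How the authors joined tags is not given in the sources used here. At most 66 autosomal intervals were identical between any 2 libraries.

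Covered bases were counted in 10-kb bins of chromosomes 1 to 20, numbered from the first base, with the chromosome length taken as the highest interval end. Coordinates are 1-based. The interval arithmetic and the choice of bins were tested on simulated intervals. No test across bins was run. Flanks were averaged over the bins present on the chromosome. Named bins follow fixed rules: the 5 longest runs, the 5 highest mean AG coverages, the 5 widest excesses of AG over GG, 5 bins with at least 5000 covered bases in both GG libraries and the lowest GG coverage 20 to 50 kb away, with ties in order of position, and 3 bins on either side of the threshold. The bins, rules and settings were chosen with earlier results of these data known. The analysis ran in Python 3.11.15 with pandas 2.3.3, numpy 2.4.6, matplotlib 3.10.9 and scipy 1.17.1.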

Additional observations from a re-analysis of the deposited data

How the results depend on the processing

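No paired analysis was possible because no result comes from a test and the labels do not tie an AG replicate to a GG replicate of the same number. The number of shared bins, 1875, stayed between 1552 and 2205 with 10-kb bins under the other thresholds, bin positions, clustering and domain rules. With bins of 5 kb it was 2424, a count of smaller bins that cannot be set directly against 1875. It ranged from 1752 to 3359 when a library was left out, and without AG replicate 1 it was 3359. The GG to AG ratio of medians stayed above 1 in each of these settings; the bins 10 kb away, the flanks against the autosomal mean and the coverage of other bases were not recomputed. With a library left out, the GG to AG ratio of medians ran from 2.86 to 4.41, the AG bases on GG bases from 85.2% to 88.8%, touching bins from 43.6% to 47.6%, and flank coverage relative to the bin from 0.139 to 0.166 in AG and from 0.306 to 0.388 in GG.

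Other settings that moved a value by more than its spread were these. For the ratio and the base overlap the spread was the SD over the 4 library pairings, which share libraries. For the flanks it was the SD over the 2 libraries of a group. For touching bins it was a 95% binomial interval over the bins, 41.4% to 45.9%. That interval treats bins as independent, which touching bins are not, and does not measure the spread between libraries. Marking at 300 bases gave 46.7% touching bins and a GG flank of 0.357. Marking at 750 bases gave a ratio of 2.99, 38.4% touching bins and a GG flank of 0.346. Shifting bins by 5 kb gave a GG flank of 0.360. Bins of 5 kb gave a ratio of 2.31, 91.5% of AG bases on GG bases, 65.8% touching bins and flanks of 0.106 in AG and 0.293 in GG. Joining at 3000 bp gave 2.94, 88.3% and a GG flank of 0.293. Wide domains from 30 kb gave 2.92, 87.4%, 40.2% touching bins and a GG flank of 0.305. Wide domains from 100 kb gave 3.35, 90.5% and flanks of 0.166 in AG and 0.423 in GG. Wide domains in either GG library gave 2.97, 88.3% and flanks of 0.134 in AG and 0.291 in GG. A common clustering of all libraries (joining across gaps up to 200 bp and dropping clusters under 1000 bp) gave 3.26, 89.7% and flanks of 0.134 in AG and 0.370 in GG. The causes of these shifts were not tested. Depth is unknown, so no limit of detection can be given.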

Other observations

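The sex chromosomes lie outside the set described above. On X, 12 of 14914 bins passed the same rule (0.805 per 1000 bins), below the lowest autosome at 5.08, and 9 of the 12 lay in the first 2 Mb. X had 23 bins marked in both AG libraries and 1897 marked in both GG libraries, so the shared bins were 0.633% of its GG bins. The number of X copies in the AG embryos is not given, and its part in these values was not tested. On Y, 6 bins were marked in both AG libraries and 0 in both GG libraries, and no bin was shared. A maternal genome holds no Y, so the lack of GG and of shared bins there was fixed in advance.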
